A study of Mus musculus with 12 samples.

Results

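The insulin-like growth factor (IGF) system was examined in cultured mouse cardiac fibroblasts with and without Smad7 through 10 genes: the ligands Igf1 and Igf2, the receptors Igf1r and Insr, and the binding proteins Igfbp2, Igfbp3, Igfbp4, Igfbp5, Igfbp6 and Igfbp7. They were taken by gene symbol from the 35275 genes of the deposited count table, and all 10 passed the filter on low counts that left 15150 genes for testing. In Smad7-KO cells, mRNA of 5 of the 6 binding proteins (Igfbp2, Igfbp3, Igfbp4, Igfbp6 and Igfbp7) was lower than in control cells, at baseline as well as after TGF-β1. The falls ran from 1.8-fold for Igfbp7 to 3.89-fold for Igfbp6 in unstimulated cells, and from 1.57-fold for Igfbp4 to 3.01-fold for Igfbp3 after TGF-β1. With a trend on gene length removed, all 5 stayed called. The log2 fold changes in unstimulated cells then were -0.49 for Igfbp7 and -1.57 for Igfbp6, beside -0.85 and -1.96 as counted. After TGF-β1, Igfbp2, Igfbp4 and Igfbp7 were called in 8 of 12 fits with 1 library left out. Igf1 mRNA was higher in Smad7-KO cells, a difference that became smaller and no longer passed the test once the length trend was removed. TGF-β1 lowered Igfbp3 in Smad7-KO cells, and no other member passed the test for TGF-β1 in either genotype.

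IGF-1 and IGF-2 are secreted growth factors that act through the IGF-1 receptor, a tyrosine kinase related to the insulin receptor, and from there through insulin receptor substrates, PI3K and AKT. In extracellular fluid most IGF is held by IGF binding proteins, which prolong its life, limit its access to the receptor and also have actions of their own. Binding proteins are cut by extracellular proteases, which frees the ligand. Igfbp7 encodes a related protein that binds IGFs weakly and lies in the matrix. In the heart, fibroblasts and macrophages are sources of IGF-1.

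Fibroblasts came from hearts of mice with a floxed Smad7 gene, aged 12 weeks and of strain C57BL/6 by the labels (C57BL/6J in the study's methods), and all groups were cells of passage 2. Smad7-KO cells received an adenovirus expressing Cre recombinase for 48 hours at a multiplicity of infection of 100, so that loss of the gene depends on infection of each cell and did not arise in the animal. Control cells are titled wild type in the sample labels, and the study describes its control fibroblasts as carrying the same floxed alleles. They received a control adenovirus, described as GFP-expressing in the sample labels and as empty in the study's methods. Control and Smad7-KO cells thus also differ in exposure to Cre. Each genotype was studied unstimulated and after TGF-β1 at 10 ng/ml, for 2 hours by one label and 4 hours by another, with 3 libraries in each of the 4 conditions. The series describes the samples of a condition as independent, without naming separate animals or cultures, so p-values measure the spread between these libraries. Smad7 is an inhibitory Smad that restrains TGF-β receptor signaling, and the comparisons ask what its loss and TGF-β1 each did to these genes and whether loss altered the response.

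Smad7 was measured at 71.4, 74.6 and 77.2 CPM (reads scaled to a fixed library size) in unstimulated control libraries and at 28.6, 28.4 and 31.1 CPM in unstimulated Smad7-KO libraries. TGF-β1 brought the levels to 145, 150 and 142 in control cells and to 80.8, 70 and 79.5 in Smad7-KO cells. The groups did not overlap in either comparison, and transcripts counted on the gene remained in Smad7-KO cells. Libraries held 19056916 to 25371321 counted reads (median 22660845). The mean length of the counted genes, weighted by reads (harmonic mean), was 2160, 1817 and 2524 bases in unstimulated control libraries 1, 2 and 3, and 2168 to 2452 bases in stimulated control libraries. Smad7-KO libraries stood at 2440 to 2511 bases unstimulated and 2355 to 2532 bases after TGF-β1. Unstimulated control library 2 thus stood apart toward short genes, and the Smad7-KO effect on each of the 10 genes is given below also after each library's trend on gene length was removed.

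Markers of other cell types moved with Smad7 loss. The sum of 12 endothelial markers ran from 286 to 337 CPM without and from 291 to 333 CPM with TGF-β1 in control libraries, against 49.4 to 59.4 and 46.9 to 47.7 CPM in those of Smad7-KO cells. Of 11 endothelial markers tested, 8 were lower and 1 (Vwf) higher in both Smad7-KO comparisons. Cldn5 was read too rarely to test in any condition. It had 6 reads in unstimulated and 8 in TGF-β1 control, and 2 and 0 in the corresponding Smad7-KO libraries. The 11 macrophage markers in the table summed to 16000 to 25800 CPM (unstimulated) and 15900 to 18600 CPM (TGF-β1) in control libraries, and to 22900 to 25200 and 22000 to 25100 CPM in the corresponding Smad7-KO libraries; 6 were higher in unstimulated and 5 in TGF-β1 Smad7-KO cells, and none was lower. These sums exceeded those of 10 fibroblast markers, which were 7420 to 11500 CPM in unstimulated control libraries and 8660 to 10100 CPM in Smad7-KO libraries. Lyz2 alone averaged 12400 CPM in unstimulated control and 14300 CPM in unstimulated Smad7-KO cells, the highest level of any marker in either list. Cultures labelled as cardiac fibroblasts thus also held abundant macrophage transcripts. Within the fibroblast list, Thy1 and Tcf21 were lower and Dcn and Lum higher in both Smad7-KO comparisons. Of 6 mesothelial markers tested, 4 were lower in unstimulated and 2 in TGF-β1 Smad7-KO cells, and the 8 in the list summed to 277 to 310 CPM in unstimulated control and 176 to 212 CPM in unstimulated Smad7-KO libraries. The 8 cardiomyocyte markers were low, summing to 34 to 78 CPM in unstimulated and 28.7 to 33.4 CPM in TGF-β1 control libraries, against 18.4 to 24.6 and 18.7 to 21.1 CPM in the corresponding Smad7-KO libraries; Tnnt2 and Tnni3 were lower among 4 tested at baseline, none was called after TGF-β1, and Nppa was at 0 in 3 of the 4 conditions. The 8 smooth muscle and pericyte markers summed to 23.5 to 63.8 and 39 to 53.1 CPM in control and 34.9 to 42.7 and 32 to 40 CPM in Smad7-KO libraries without and with TGF-β1, and of 5 tested, Cspg4 was lower in both comparisons and Des at baseline. Once the length trend was removed, 9 macrophage markers were higher and 9 endothelial markers lower in each comparison. In RNA from whole cultures, fewer cells of a type and less RNA per cell cannot be told apart. The part of any of these cell types, or of gene length, in the results below was not tested beyond the values given.

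**Figure D1:**
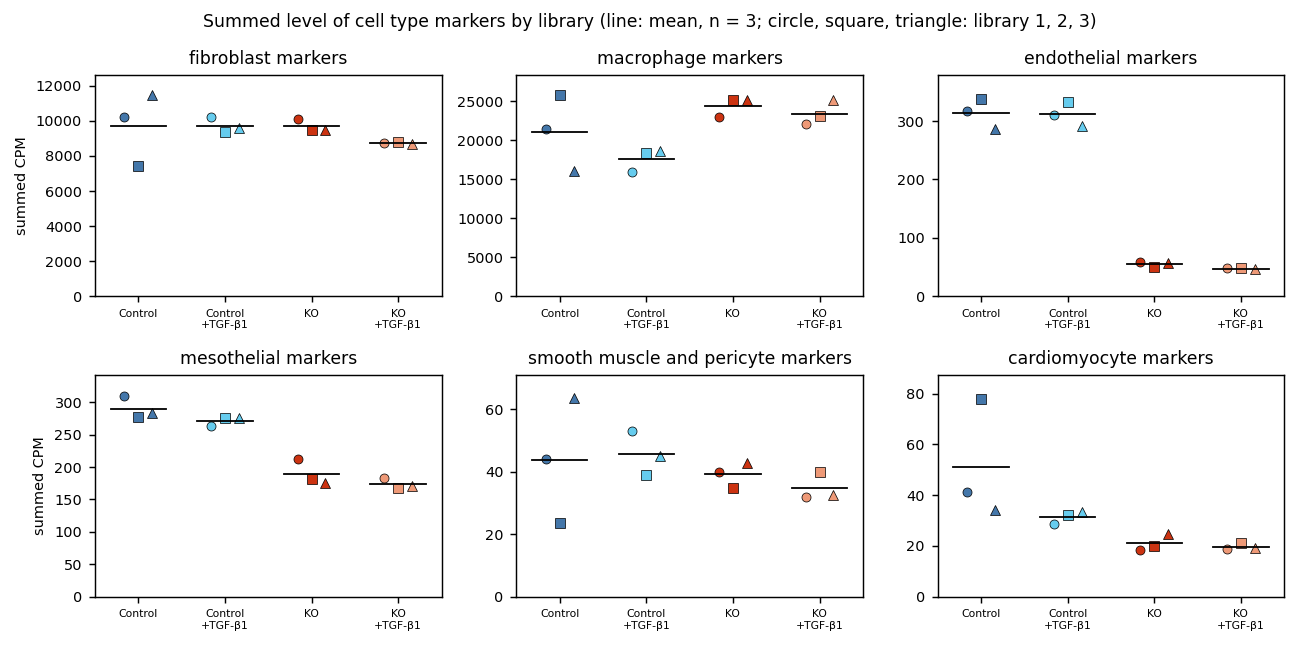
Summed CPM of 6 lists of cell type markers (vertical axes, from 0) in each library of the 4 conditions; symbols mark libraries 1, 2 and 3 and lines the mean (n = 3). Endothelial sums lie at 286 to 337 CPM in control and 46.9 to 59.4 CPM in Smad7-KO libraries. Macrophage sums, of which Lyz2 is the largest part, lie above fibroblast sums in every condition.

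Per length, the binding proteins dominated the IGF system in these cultures. In unstimulated control cells, Igfbp7 was the most abundant member at 1200 FPKM (reads per gene length and library total), followed by Igfbp2 at 937, Igfbp4 at 280, Igf1 at 58.7, Igfbp6 at 36.5, Igf1r at 11.1, Igfbp3 at 10.9, Insr at 4.2, Igfbp5 at 1.15 and Igf2 at 0.425 (means, n = 3). Over all libraries Igfbp7 ranked 47 and Igfbp2 76 of 35275 genes by mean FPKM. Neighbours in that order overlapped between libraries for Igfbp7 and Igfbp2, for Igf1r and Igfbp3, and for Igfbp5 and Igf2. In Smad7-KO cells the order changed in its middle. There Igf1r, at 16.1 ± 1.39 FPKM, stood above Igfbp6, at 9.67 ± 0.754, and Insr, at 6.44 ± 0.651, above Igfbp3, at 4.36 ± 0.566 (SD, n = 3), with no overlap between libraries within either pair.

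**Figure D2:**
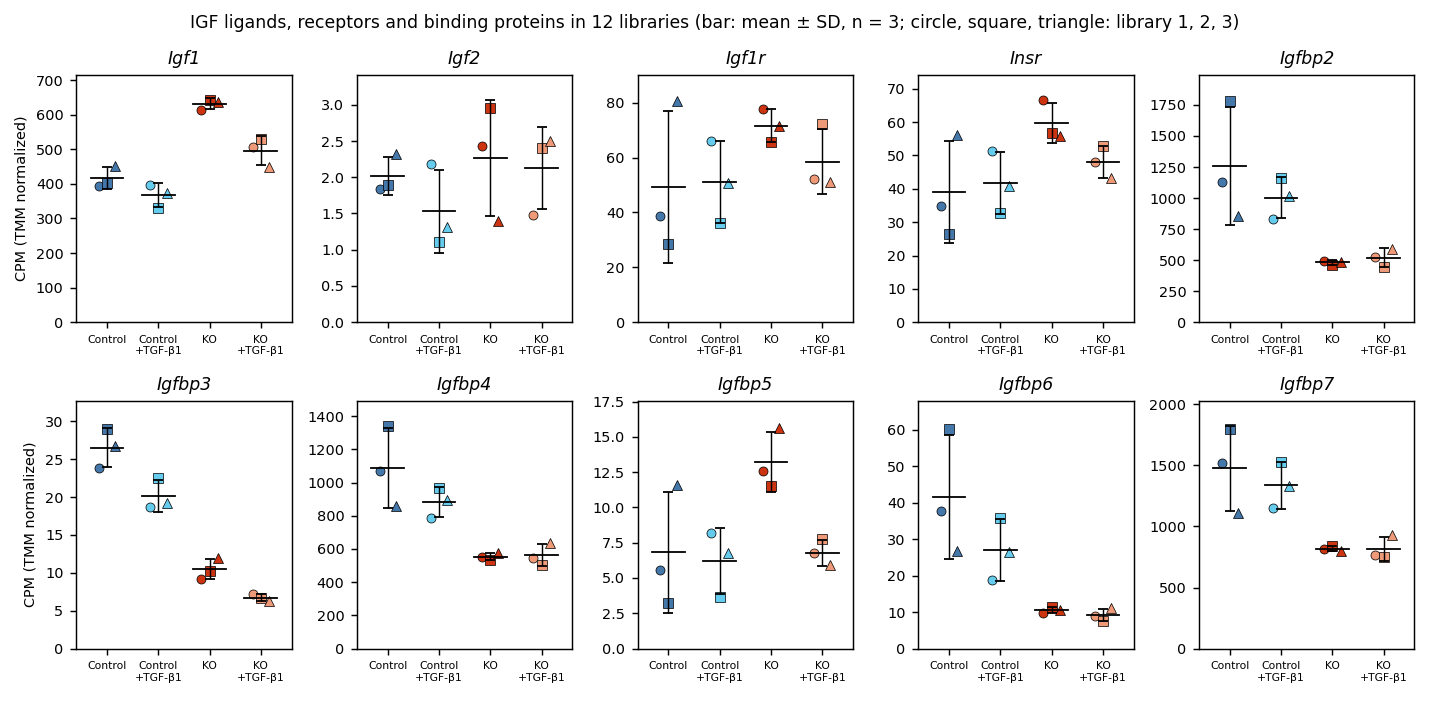
CPM after TMM normalization (vertical axes, from 0) of the 10 genes in each of the 12 libraries; symbols mark libraries 1, 2 and 3, and bars the mean ± SD (n = 3). Igfbp2, Igfbp3, Igfbp4, Igfbp6 and Igfbp7 lie lower in every Smad7-KO library than in every control library of the same stimulation, and unstimulated control libraries spread more widely than unstimulated Smad7-KO libraries for every gene but Igf2.

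Igf1, the main IGF ligand after birth (chr10:87858265-87937042, plus strand, GRCm38), was read at 394, 403 and 452 CPM in unstimulated control libraries and at 613, 643 and 638 CPM in unstimulated Smad7-KO libraries. After TGF-β1 it was at 398, 331 and 375 CPM in control and 507, 531 and 449 CPM in Smad7-KO libraries. Every Smad7-KO library lay above every control library in both comparisons. The log2 fold change was 0.60 ± 0.108 (SE, Benjamini-Hochberg adjusted p = 0.00344 by the quasi-likelihood test of edgeR) in unstimulated cells and 0.43 ± 0.107 (adjusted p = 0.0231, edgeR) after TGF-β1. With the gene length trend removed, these values were 0.17 (adjusted p = 0.362, edgeR) and 0.24 (adjusted p = 0.235, edgeR), and neither passed the test. Igf1 has the second longest counted length of the members, 7052 bases. Unstimulated control library 3, with a mean counted length of 2524 bases, held 452 CPM of Igf1. Unstimulated Smad7-KO libraries, at 2440 to 2511 bases, held 613 to 643 CPM. Macrophage sums of unstimulated libraries were 16000 to 25800 CPM in control and 22900 to 25200 CPM in Smad7-KO cells. Lyz2 was the largest part of these sums, with means of 12400 and 14300 CPM. The part of gene length or of macrophages in the Igf1 reading was not tested.

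Igf2, the IGF of fetal growth (chr7:142650766-142666816, minus strand), was near the limit of detection at 27 to 69 reads per library. It was read at 1.84, 1.89 and 2.32 CPM in unstimulated control and 2.43, 2.96 and 1.39 CPM in unstimulated Smad7-KO libraries, and the groups overlapped. The log2 difference was 0.16 (95% interval -0.58 to 0.91) in unstimulated cells and 0.46 (-0.29 to 1.22) after TGF-β1, so differences within these intervals could not be told from the spread between libraries. With the length trend removed the values were -0.06 and 0.39, and neither passed the test.

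Neither receptor passed the test for Smad7 loss. Igf1r (chr7:67952859-68226780, plus strand) was at 38.7, 28.6 and 80.6 CPM in unstimulated control libraries, and 77.7, 65.6 and 71.3 CPM in those of Smad7-KO cells. Stimulated libraries held 66.1, 36.2 and 50.8 CPM in control and 52.1, 72.1 and 51.2 CPM in Smad7-KO cells. The control libraries spread the widest, with library 2, which had the shortest counted genes, lowest and library 3, which had the longest, highest. Insr, the insulin receptor (chr8:3150922-3279617, minus strand), repeated this order at 34.8, 26.3 and 56 CPM in unstimulated control libraries, and stood at 66.6, 56.7 and 55.9 CPM in unstimulated Smad7-KO libraries. For Igf1r the log2 difference was 0.53 (95% interval -0.19 to 1.26, adjusted p = 0.227, edgeR) in unstimulated cells and 0.20 (-0.53 to 0.92) after TGF-β1. For Insr it was 0.61 (0.08 to 1.14, adjusted p = 0.0777, edgeR) and 0.20 (-0.33 to 0.73). Without unstimulated control library 3, both receptors passed in unstimulated cells, at 1.09 for Igf1r and 0.97 for Insr. In that fit 7979 of 15499 genes were called. DESeq2 on all 12 libraries called Insr in unstimulated cells with an adjusted p of 0.0484, beside 5154 of 16014 genes. With the length trend removed, Insr was at 0.17 (adjusted p = 0.109, edgeR) in unstimulated cells and turned to -0.05 (adjusted p = 0.689, edgeR) after TGF-β1, while Igf1r was at 0.40 (adjusted p = 0.245, edgeR) and 0.14 (adjusted p = 0.737, edgeR).

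Binding proteins made up 5 of the 6 members called for Smad7 loss at baseline, and 5 of the 6 called under TGF-β1, Igf1 being the other in both. Of all genes tested, 25.8% were called for Smad7 loss in unstimulated cells (12.1% higher, 13.7% lower) and 13% after TGF-β1 (5.72% higher, 7.23% lower). The median log2 difference of the 6 binding proteins was -1.16 in unstimulated cells and -0.83 after TGF-β1, beside -0.02 over all genes tested in both. The libraries of the groups did not overlap for the 5 lower binding proteins and Igf1, in either comparison, as for 41.3% of all genes tested at baseline and 44.9% under TGF-β1.

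Igfbp3, the main carrier of IGF in the circulation and an inhibitor of growth in many cultured cells (chr11:7206086-7213923, minus strand), had the smallest standard errors for Smad7 loss of the 6 binding proteins. It was at 23.8, 29 and 26.8 CPM in unstimulated control libraries and at 9.22, 10.3 and 11.9 CPM in unstimulated Smad7-KO libraries. Stimulation left 18.7, 22.5 and 19.2 CPM in control cells and 7.14, 6.7 and 6.23 CPM in Smad7-KO cells. The 4 conditions did not overlap, with unstimulated control highest and TGF-β1 Smad7-KO lowest. Igfbp3 fell 2.53-fold with Smad7 loss in unstimulated cells (log2 -1.34 ± 0.135 SE, adjusted p = 1.15e-04, edgeR) and 3.01-fold after TGF-β1 (log2 -1.59 ± 0.138, adjusted p = 4.52e-05, edgeR). It was called with each of the 12 libraries left out in turn, between -1.44 and -1.25 and between -1.64 and -1.49 in the respective comparisons.

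Igfbp6, which prefers IGF-2 over IGF-1 (chr15:102144362-102149511, plus strand), showed the largest fall among the members in unstimulated cells. Unstimulated control libraries held 37.7, 60.3 and 26.8 CPM, and unstimulated Smad7-KO libraries 9.86, 11.5 and 10.6 CPM. After TGF-β1 the values were 18.9, 35.8 and 26.5 CPM in control and 8.86, 7.69 and 11 CPM in Smad7-KO libraries. The control libraries differed among themselves widely, and even the lowest of them lay above all Smad7-KO libraries in the plot of CPM by library. The log2 fold change was -1.96 ± 0.297 (adjusted p = 0.00148, edgeR) in unstimulated cells and -1.56 ± 0.296 (adjusted p = 0.00612, edgeR) after TGF-β1, and Igfbp6 was called in both with each of the 12 libraries left out in turn.

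Igfbp2, a binding protein of fluids and connective tissue (chr1:72824503-72852474, plus strand), was at 1130, 1780 and 856 CPM in unstimulated control libraries and 495, 460 and 489 CPM in unstimulated Smad7-KO libraries. In TGF-β1 libraries it was at 831, 1160 and 1020 CPM in control and 526, 441 and 593 CPM in Smad7-KO cells. It fell 2.61-fold in unstimulated cells (log2 -1.38 ± 0.234, adjusted p = 0.00267, edgeR) and 1.93-fold after TGF-β1 (log2 -0.95 ± 0.231, adjusted p = 0.0204, edgeR). Its highest value was in unstimulated control library 2, the library with the shortest counted genes. Igfbp2 and Igfbp5 lie end to end on chromosome 1, on opposite strands with 5457 bases between their tails, and Igfbp5, described below, was not lower.

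Igfbp4, an inhibitor of IGF action that is opened by the protease PAPP-A (chr11:99041244-99054392, plus strand), was at 1070, 1340 and 860 CPM in unstimulated control and 552, 534 and 577 CPM in unstimulated Smad7-KO libraries. Its fall was 1.96-fold (log2 -0.97 ± 0.158, adjusted p = 0.00213, edgeR) and, after TGF-β1, 1.57-fold (log2 -0.65 ± 0.158, adjusted p = 0.0197, edgeR), where control libraries held 785, 968 and 895 CPM and Smad7-KO libraries 547, 504 and 634 CPM. Igfbp7, the weakly binding matrix protein (chr5:77349240-77408045, minus strand), was at 1520, 1800 and 1110 CPM in unstimulated control and 813, 842 and 802 CPM in unstimulated Smad7-KO libraries. Its log2 fold change was -0.85 ± 0.172 (adjusted p = 0.00661, edgeR), and -0.71 ± 0.172 (adjusted p = 0.0194, edgeR) after TGF-β1, where the values were 1150, 1530 and 1330 CPM in control and 770, 748 and 930 CPM in Smad7-KO libraries. Igfbp7 is also produced by endothelial cells. The sum of endothelial markers separated the genotypes in both comparisons, as did Igfbp7 and the other lower binding proteins. Any part of endothelial cells in its reading was not tested. Polr2b overlaps Igfbp7 on the opposite strand with 19042 reads in all libraries beside 295273 for Igfbp7, and whether counting used strand is not given in the sources used here.

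Igfbp5, a binding protein of muscle and matrix (chr1:72857932-72874884, minus strand), was the binding protein that was not lower in Smad7-KO cells. It was at 5.56, 3.26 and 11.6 CPM in control and 12.6, 11.5 and 15.6 CPM in Smad7-KO libraries without stimulation. With TGF-β1 the values were 8.21, 3.62 and 6.75 CPM for control and 6.74, 7.74 and 5.9 CPM for Smad7-KO cells. Unstimulated Smad7-KO libraries were the highest, but overlapped with control library 3. The log2 difference was 0.94 (95% interval 0.09 to 1.80, adjusted p = 0.0882, edgeR) in unstimulated and 0.13 (-0.73 to 1.00) in stimulated cells. The first was called, at 1.57, without unstimulated control library 3, a fit that called 7979 of 15499 genes. Removal of the length trend gave 0.72 (adjusted p = 0.054, edgeR) and 0.01 (adjusted p = 0.976, edgeR).

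**Figure D3:**
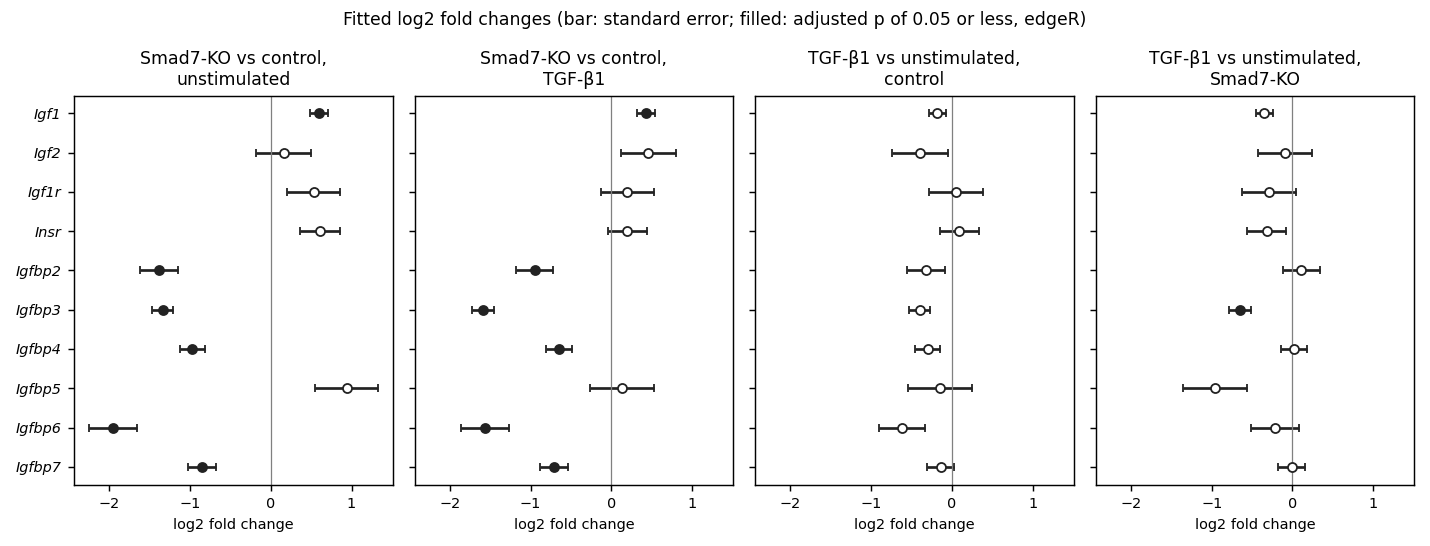
Fitted log2 fold changes (horizontal axes) of the 10 genes in both Smad7-KO comparisons and in both TGF-β1 comparisons; bars are standard errors and filled symbols passed an adjusted p of 0.05. Filled symbols are 6 in each Smad7-KO comparison, 5 of them binding proteins below 0, and Igfbp3 alone in the TGF-β1 comparison of Smad7-KO cells.

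After TGF-β1, the calls of Igf1, Igfbp2, Igfbp4 and Igfbp7 were less secure than those of Igfbp3 and Igfbp6. Without TGF-β1 control library 2 or 3, or TGF-β1 Smad7-KO library 1 or 2, only 2 members, Igfbp3 and Igfbp6, were called lower in Smad7-KO cells. Over all genes, these fits called 883 of 15489, 1127 of 15535, 942 of 15529 and 965 of 15561, beside 1962 of 15150 with all 12 libraries. The fold changes of the others moved little, as Igfbp2 stayed between -1.07 and -0.82 and Igfbp4 between -0.74 and -0.57 with any 1 library left out.

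Direction among the members followed gene length. The 5 lower binding proteins have counted lengths of 1112 (Igfbp6), 1213 (Igfbp7), 1307 (Igfbp2), 2421 (Igfbp3) and 3831 bases (Igfbp4), and the other members 4489 (Igf1r), 4722 (Igf2), 6006 (Igfbp5), 7052 (Igf1) and 9355 bases (Insr). Of 8398 tested genes of 1112 to 3831 bases, 17.7% were lower and 8% higher in unstimulated Smad7-KO cells, and of 3295 genes of 4489 to 9355 bases, 4.43% were lower and 22.4% higher. With the length trend removed, 15.2% of the shorter and 15.1% of the longer genes were lower, but 12.1% of the shorter and 20.1% of the longer genes were higher. After TGF-β1 the removal left 10% and 12.5% lower and 11.2% and 19.3% higher, so a difference between shorter and longer genes remained among those that rose. All 5 binding proteins passed the test with that removal in both comparisons, in which 29% and 23.2% of all genes were called (15% and 10.3% lower). In unstimulated cells their log2 fold changes became -1.57 for Igfbp6 (adjusted p = 6.50e-05, edgeR), -1.24 for Igfbp3 (2.16e-05), -1.12 for Igfbp4 (0.00176), -1.0 for Igfbp2 (1.10e-04) and -0.49 for Igfbp7 (6.64e-04). After TGF-β1 they were -1.47 for Igfbp3, -1.34 for Igfbp6, -0.74 for Igfbp2, -0.67 for Igfbp4 and -0.51 for Igfbp7, the largest adjusted p being 0.0298 for Igfbp4 (edgeR). Igfbp7 thus kept its call at a smaller size, and Igfbp3 and Igfbp4 moved by less than 1 standard error.

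**Figure D4:**
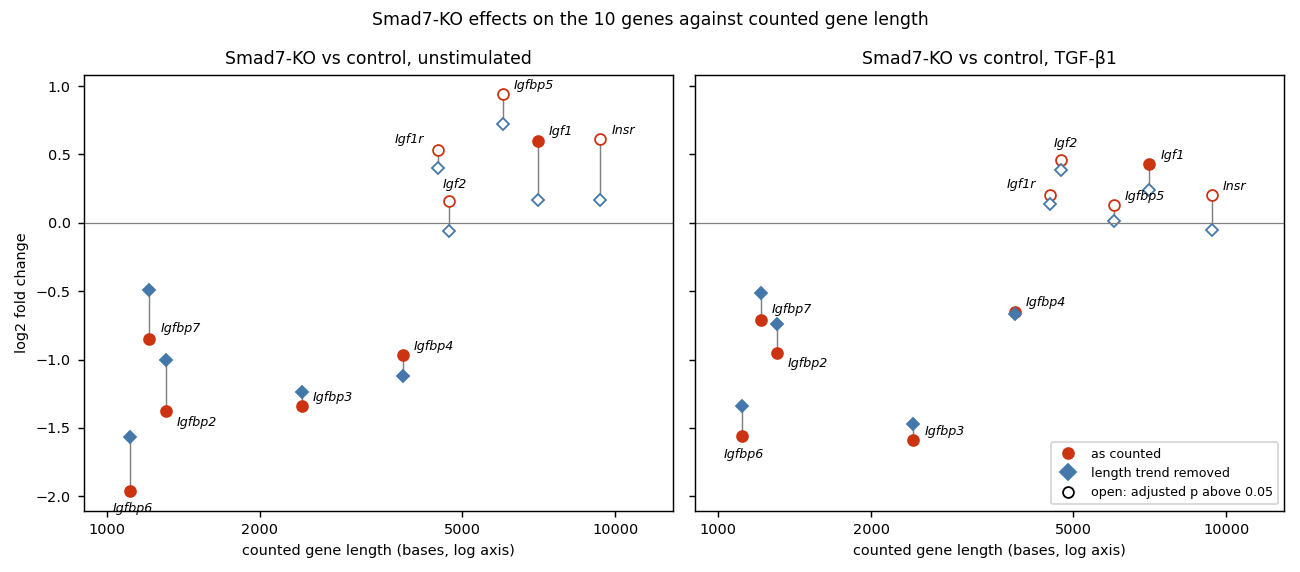
Log2 fold change with Smad7 loss (vertical axis) against counted gene length in bases (horizontal log axis) at baseline (left) and under TGF-β1 (right), as counted (circles) and with the length trend removed (diamonds), filled where the adjusted p was 0.05 or less. Genes of up to 3831 bases lie below 0 and those of 4489 bases or more above 0 as counted; the 5 lower binding proteins stay filled, while Igf1 becomes open.

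Summed over the 6 binding proteins, mRNA was at 2490, 2990 and 1910 FPKM in unstimulated control and 1220, 1210 and 1210 FPKM in unstimulated Smad7-KO libraries. In TGF-β1 libraries the sums were 1850, 2460 and 2170 FPKM in control and 1180, 1070 and 1380 FPKM in Smad7-KO cells. The sums of the genotypes did not overlap, and Smad7-KO means were 1210 ± 4.67 and 1210 ± 154 FPKM against 2460 ± 544 and 2160 ± 306 FPKM (SD, n = 3). Igfbp7 and Igfbp2 together set the sum. Igfbp2 gave 37.6 ± 3.57% of it in unstimulated control and 30.6 ± 1.14% in unstimulated Smad7-KO cells, and Igfbp7 48.9 ± 3.07% and 56.1 ± 1.5%. Igf1 stood at 2.51 ± 0.894 FPKM per 100 FPKM of binding proteins in unstimulated and 2.5 ± 0.592 in stimulated control cells, and at 7.43 ± 0.203 and 5.81 ± 1.17 in the corresponding Smad7-KO cells. Since Igf1 is long and Igfbp2 and Igfbp7 are short, this ratio carries the length trend of the libraries.

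**Figure D5:**
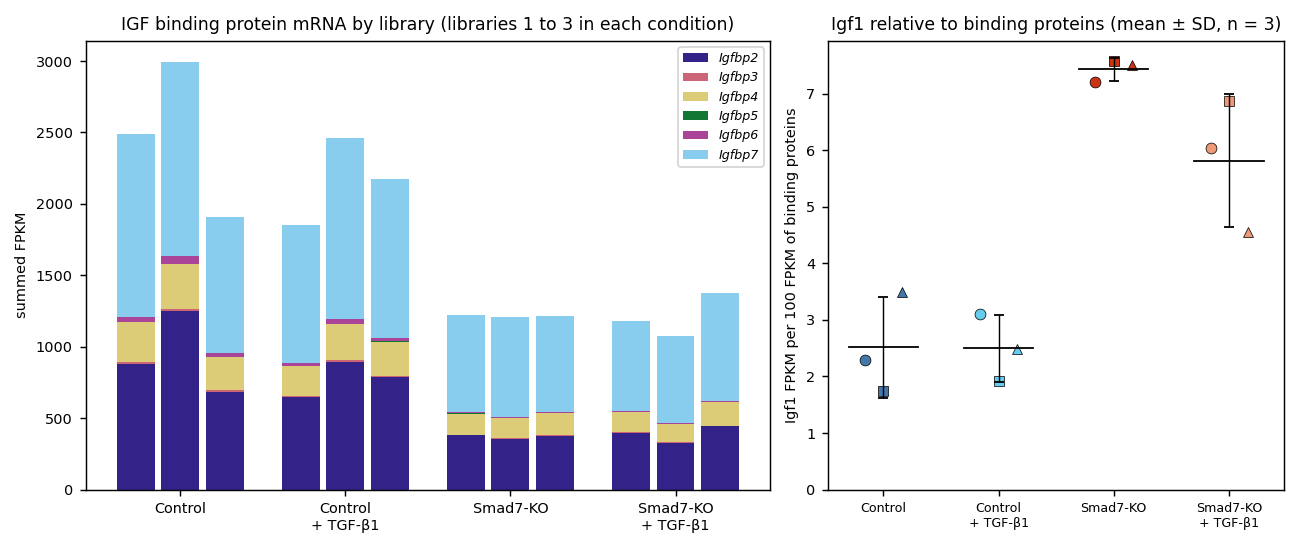
Left, stacked FPKM of the 6 binding proteins in each library (vertical axis from 0). Right, Igf1 FPKM per 100 FPKM of binding proteins, with mean ± SD (n = 3). Summed binding protein mRNA lies at 1850 to 2990 FPKM in control and 1070 to 1380 FPKM in Smad7-KO libraries, mostly Igfbp7 and Igfbp2.

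The sequence before the start of the members was searched because TGF-β acts on its target genes through Smad proteins, which bind the short box CAGAC. It was searched on both strands. RefSeq promoter windows on GRCm38.p6 were found for 9 of the 10 members, not for Insr, and the 250 bases upstream of each listed start were read in the direction of the gene. The 3 members with the largest falls in unstimulated Smad7-KO cells are shown, at chr15:102143936-102144185 (plus strand) for Igfbp6, chr1:72824230-72824479 (plus strand) for Igfbp2 and chr11:7213924-7214173 (minus strand) for Igfbp3, with the box in capitals.
Igfbp6: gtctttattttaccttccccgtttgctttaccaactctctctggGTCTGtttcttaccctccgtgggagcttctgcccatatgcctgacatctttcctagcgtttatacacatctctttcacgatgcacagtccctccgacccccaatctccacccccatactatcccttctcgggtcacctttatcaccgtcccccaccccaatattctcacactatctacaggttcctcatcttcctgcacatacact
Igfbp2: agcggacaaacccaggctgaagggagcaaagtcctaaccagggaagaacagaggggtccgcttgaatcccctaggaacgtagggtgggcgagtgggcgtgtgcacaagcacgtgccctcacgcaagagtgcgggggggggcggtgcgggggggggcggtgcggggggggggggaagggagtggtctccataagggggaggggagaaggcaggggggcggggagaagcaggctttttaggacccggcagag
Igfbp3: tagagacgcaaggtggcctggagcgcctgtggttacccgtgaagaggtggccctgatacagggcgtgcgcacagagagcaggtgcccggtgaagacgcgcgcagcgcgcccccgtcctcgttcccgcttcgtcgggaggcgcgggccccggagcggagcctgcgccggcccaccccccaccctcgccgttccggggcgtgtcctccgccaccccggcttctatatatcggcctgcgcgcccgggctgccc
Igfbp6 holds the box once, read as GTCTG from the other strand, 206 bases before the start. Neither this Igfbp2 window nor Igfbp3 holds it, nor do the windows of Igfbp4 and Igfbp7. A second listed start of Igfbp2, inside the gene, has 1. The box is short and was found in 42.2% of all 32851 windows of that length. In base composition the windows differed, with 49.6% G and C for Igfbp6, 67.2% for Igfbp2 and 73.2% for Igfbp3, beside a median of 52.4% over all windows. Of the 13 windows of the members, 6 held the box, among them 3 of the 4 starts of Igf2 and that of Igf1r.

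TGF-β1 changed few members. In control cells, edgeR called none of the 10, with 8.37% of all genes called (5.04% higher, 3.33% lower). Of the members, 1 had an unadjusted p under 0.05, and DESeq2 called 1, beside 1727 of 16996 genes. Both times this was Igfbp3, at a log2 fold change of -0.40 ± 0.131 (adjusted p = 0.0942, edgeR), which passed with the length trend removed (adjusted p = 0.0381), when 14.5% of all genes were called. In Smad7-KO cells 1 of 10 was called, with 10.2% of all genes (5.33% higher, 4.9% lower), and again it was Igfbp3, which fell 1.56-fold (log2 -0.65 ± 0.138, adjusted p = 0.00987, edgeR). The call was lost without unstimulated Smad7-KO library 3 (-0.54) or TGF-β1 Smad7-KO library 3 (-0.60). Igfbp3 was thus lower after TGF-β1 in every stimulated library of both genotypes than in every unstimulated one of the same genotype. Libraries separated without overlap, in either direction, for 19.8% of all genes in control cells and 39% in Smad7-KO cells.

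Igf1 in Smad7-KO cells was at a log2 difference of -0.35 ± 0.107 with TGF-β1 (adjusted p = 0.0639, edgeR), and Igfbp5 at -0.96 ± 0.391 (adjusted p = 0.18, edgeR), with no overlap between stimulated and unstimulated libraries for either, as for 39% of all genes in that comparison. Both were called when unstimulated control library 2 or 3, which lies outside that comparison but shares its estimate of spread, was left out. Those 2 fits called 2535 of 15510 and 2057 of 15499 genes in that comparison. Igfbp5 was also called with the length trend removed (-0.94, adjusted p = 0.0243, edgeR), as was Insr (-0.28, adjusted p = 0.0213, edgeR), with 16.3% of all genes called. Igfbp2, Igfbp4 and Igfbp7 in Smad7-KO cells had log2 differences of 0.11 (95% interval -0.39 to 0.61), 0.02 (-0.32 to 0.36) and -0.01 (-0.38 to 0.37) with TGF-β1. Igfbp6 was at -0.62 (-1.24 to 0.00) in control and -0.22 (-0.87 to 0.43) in Smad7-KO cells.

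The interaction, which tests whether the effect of Smad7 loss differs between stimulated and unstimulated cells, called none of the members by edgeR or by DESeq2, and none had an unadjusted p under 0.05. Of all genes tested, 0.0198% were called. The largest difference was that of Igfbp5, at -0.81 (95% interval -2.03 to 0.41), an interval that includes a difference as large as its unstimulated effect of 0.94. Igfbp3 was at -0.25 (-0.66 to 0.17), which ends short of its unstimulated effect of -1.34. Differences within these intervals could not be told from the spread between libraries.

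Closeness of patterns was measured by the root mean square difference of log2 CPM over 12 libraries, each gene centred on its mean, among the 9955 genes that averaged 3 or more on the log2 CPM scale. For Igfbp2 the nearest gene was Rcn3 (0.0573), which encodes a calcium-binding protein of the secretory pathway, followed by Copz2 (0.0929), a subunit of the vesicle coat. Igfbp3 was nearest to Gpm6a (0.191), a membrane glycoprotein gene, and Gldc (0.22), which encodes a subunit of the glycine cleavage system. For Igfbp6 these were 1500015O10Rik (0.124) and Gsta3 (0.187), a glutathione transferase, and for Igfbp5 Epg5 (0.225), an autophagy gene, and Alpk1 (0.227), a kinase gene. The closest members were Igfbp4 and Igfbp7 (0.0819) and Igf1r and Insr (0.127). These measures include the length trend that the libraries share.

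Beyond the 10 members, 61 other genes of the pathway were listed, and 54 were tested. Smad7 loss called 14 of them in unstimulated cells (10 higher, 4 lower) and 10 after TGF-β1 (6 higher, 4 lower), beside the 25.8% and 13% of all genes given above, and 9 were called in both. Their median log2 difference was 0.13 and 0.07. The count was not stable, and in the settings below the calls over all genes moved in the same direction. It was 0 with edgeR on only the 6 unstimulated libraries, when 660 of 14524 genes were called. It was 29 when control library 3 of these was dropped (7979 of 15499 genes) and 11 when control library 2 was (3013 of 15510). It was 8 when library 1 of control (2006 of 15518) or Smad7-KO cells (1652 of 15528) was dropped. It was 6 when Smad7-KO library 2 (1536 of 15508) or 3 (1535 of 15504) was. After TGF-β1 it was 26 with only the libraries of that comparison (4453 of 14481 genes). It was 23 or 17 when unstimulated control library 2 (4465 of 15510) or 3 (3502 of 15499) was dropped. Dropping library 1, 2 or 3 of TGF-β1 control left 8, 3 or 4 calls, with 1451, 883 or 1127 calls over all genes. Dropping library 1, 2 or 3 of TGF-β1 Smad7-KO left 3, 2 or 7, with 942, 965 or 1269 over all genes. Values for single genes below are those of all 12 libraries.

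Among carriers and other ligands, 6 genes were read too rarely to test. Ins1 and Ins2, the insulin genes, had 0 reads in all libraries, which allows up to 0.0112 CPM over the series. Igfbp1 had 6 reads, Igfals, the acid-labile subunit of the circulating IGF complex, 24, Igfbpl1 22, and Insrr, an insulin receptor relative, 86. The adaptor gene Irs4, with 10 reads, was also left out. Igfbp1 lies 3539 bases from Igfbp3. Of 9 proteases of binding proteins and their inhibitors, Htra1, a secreted protease that cuts binding proteins, was lower in Smad7-KO cells, at log2 -0.71 ± 0.149 (adjusted p = 0.00797, edgeR) and -0.54 ± 0.149 (adjusted p = 0.0353, edgeR) after TGF-β1. Htra1 was at -0.52 and -0.39 with the length trend removed and was called in both. No other gene of that group was called for Smad7 loss as counted, and with the length trend removed Pappa, which encodes the protease PAPP-A, was called lower in both, at -0.76 and -0.83, as against -0.32 and -0.54 as counted.

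Downstream of the receptors, 3 of 9 adaptor genes tested were higher in unstimulated Smad7-KO cells, beside 12.1% of all genes. They were Grb2 at log2 0.50, and Sos1 and Sos2, the Ras exchange factors it recruits, at 0.61 and 0.53. Grb2 was higher also after TGF-β1 (0.29). Of 17 genes of PI3K, AKT and mTOR, 3 were higher in both comparisons, in which 12.1% and 5.72% of all genes were higher. They were Pik3ca, a catalytic subunit of PI3K (0.40 and 0.31), Pik3r1, its regulatory subunit (0.58 and 0.64), and Foxo3, a transcription factor that AKT inhibits (0.61 and 0.55). With the length trend removed, Sos1 was at 0.16, Pik3ca at -0.15, Pik3r1 at 0.20 and Foxo3 at 0.21 in unstimulated cells, and none of these 4 was called there, while Grb2 (0.54) and Sos2 (0.25) were. After TGF-β1 that removal left Pik3r1 (0.47), Foxo3 (0.38) and Grb2 (0.38) called and Pik3ca (0.06) not called. It added calls of Sos2 (0.28), the adaptor gene Sh2b2 (0.61) and Pdpk1, a kinase that activates AKT (0.24), after TGF-β1, and in unstimulated cells those of Pdpk1 (0.31) and, as a lower gene, Rheb, an activator of mTORC1 (-0.60).

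Of 14 negative regulators, 4 were higher and 3 lower in unstimulated Smad7-KO cells, beside 12.1% and 13.7% of all genes. The higher ones were Deptor, an inhibitor of mTOR (1.12), Tsc1, a restraint on mTORC1 (0.91), Ptpn1, a phosphatase of the insulin receptor (0.85), and Inpp5d, a lipid phosphatase of blood cells (0.79). Lower were Phlda3, an inhibitor of AKT (-1.05), and Grb10 and Grb14, adaptors that restrain the insulin and IGF receptors (-0.45 and -0.40). All 7 were called with the length trend removed. After TGF-β1, Deptor (1.03) and Ptpn1 (0.60) were higher and Grb10 (-0.75), Grb14 (-0.44) and Trib3, an inhibitor of AKT (-0.98), lower, and these 5 were also called with the length trend removed. Over the 54 genes, the removal gave 9 higher and 8 lower in unstimulated cells and 11 higher and 8 lower after TGF-β1. Of all genes, 14% were then higher and 15% lower in unstimulated cells, and 12.9% and 10.3% after TGF-β1. Negative regulators of the same pathway thus moved in both directions. TGF-β1 itself called 7 of the 54 genes in control cells (4 higher, 3 lower), beside 8.37% of all genes. In Smad7-KO cells it called 11 (3 higher, 8 lower), beside 10.2% of all genes. The interaction called none by edgeR or DESeq2, and none of the 54 had an unadjusted p under 0.05 for it by either.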

How the data were processed

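RNA-Seq was performed on 12 libraries of cultured cardiac fibroblasts in 4 conditions. PolyA RNA was made into NEBNext Ultra libraries, and the submitters' processing notes name CASAVA, TopHat2 2.0, Cufflinks 2.1.1, HTSeq 0.6.1 and the builds mm10 and GRCm38.p6, with no role or order. The authors deposited raw whole-number counts for 35275 genes and FPKM values, each of which was the count divided by gene length and by the library's total. Gene coordinates are those of the deposited table.

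The count model was edgeR 4.0.16 (R 4.3.3), with filterByExpr at a minimum count of 10, TMM scaling, and robust quasi-likelihood over all 12 libraries. Adjusted p-values are Benjamini-Hochberg values over 15150 genes, and genes at 0.05 or less were called. Standard errors are the coefficient over the root of its F statistic. With 3 libraries against 3, an exact test cannot go under a two-sided p of 0.1. The length trend of each library was removed by loess offsets with a span of 0.3. Other alternatives were DESeq2 1.42.0, limma 3.58.1 on log2(FPKM + 1) or log2(FPKM + 0.1), size factors of DESeq2 within edgeR, unfiltered counts, a fit of each comparison's own libraries, a block for the replicate number, and the omission of each library in turn. The fits were tested on simulated data. The 95% intervals of log2 differences come from these standard errors and include the spread between libraries, whereas floors of 3 reads cover counting error only.

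The genes named are the 10 members, Smad7, pathway genes called in a Smad7-KO comparison or read too rarely to test, and the 2 genes nearest to each member whose condition means ranged over 1 or more on the log2 scale. Pappa, Sh2b2, Pdpk1, Rheb and single cell type markers were named after their values were seen. The members and gene lists were chosen with earlier results of these data known.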

Additional observations from a re-analysis of the deposited data

How the results depend on the processing

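The 5 lower binding proteins kept their direction for Smad7 loss under every alternative tried, and no called value reversed. The number of members called for Smad7 loss in unstimulated cells was 6 to 9 with 1 library left out, and after TGF-β1 it was 2 to 6. Over all genes, calls then ran from 1535 of 15504 to 7979 of 15499 and from 883 of 15489 to 4465 of 15510. The 9 and the 7979 both came without unstimulated control library 3. For TGF-β1, 0 to 2 members were called in control and 0 to 3 in Smad7-KO cells. Over all genes, these calls ran from 825 of 15526 to 3449 of 15499 and from 985 of 15529 to 2535 of 15510. When only its own libraries were fitted, Igf1 (adjusted p = 0.051, edgeR) and Igfbp7 (0.0665) were lost in unstimulated cells, and without a filter Igf1 was lost after TGF-β1 (0.0614). TGF-β1 called 1 member in control cells with DESeq2, with the length trend removed and with length and GC trends removed. Over all genes, these fits called 1727 of 16996, 2204 of 15150 and 2360 of 15150. In Smad7-KO cells it called 2 with DESeq2 (1949 of 16505 genes) and 4 when only that comparison's libraries were fitted (3792 of 14401). It called 3 with the length trend removed, alone, with GC content or with the replicate block, beside 2468, 2619 and 2253 of 15150 genes. Removing length and GC trends, and the length trend with the block, were chosen after seeing the data.

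Pathway genes called with 1 library left out numbered 6 to 29 and 2 to 23 for Smad7 loss without and with TGF-β1, and 5 to 13 and 6 to 17 for TGF-β1 in control and Smad7-KO cells. When each comparison was fitted alone, these 4 counts were 0, 26, 2 and 23. For Smad7 loss after TGF-β1 the count was 6 with limma on log2(FPKM + 1), 19 with the length trend removed, 23 with GC content as well and 17 with the block as well. For TGF-β1 in control cells it was 13 with DESeq2 and 15, 14 and 12 with those 3 removals, and in Smad7-KO cells 17 with the length trend and 18 with length and GC trends removed. Calls over all genes also moved when each comparison was fitted alone, to 660 of 14524, 4453 of 14481, 391 of 14553 and 3792 of 14401. The cause was not tested.

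Deviations of same-numbered libraries correlated between -0.357 and 0.524. These values have no differently numbered pairs beside them and cannot tell whether replicate numbers pair the samples. With the replicate block, 6, 6, 0 and 1 members and 14, 7, 5 and 8 pathway genes were called in the 4 comparisons and none for the interaction. Igf2 had the fewest reads of the members, at 27 to 69 per library, and how far depth or the spread between libraries limits it was not tested. Only 3 libraries per condition and the wide spread of unstimulated control libraries limit the precision of the other members.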
